A study of Homo sapiens with 6 samples.

Results

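The genes described here are the long intergenic RNA genes with symbols of the form LINC and a number, and the antisense RNA genes, whose symbols end in -AS and a digit. They were selected by symbol and on level, as the rows with at least 0.1 FPKM (fragments scaled by transcript length and sequencing total) in 1 of the treatments. Of 684 rows with such a symbol among 23615 in the table, 335 met this rule, 244 antisense and 91 intergenic. The remainder were listed at 0 in both treatments (135 rows) or lay above 0 and under 0.1 FPKM (214 rows). Just inside the limit, LRRC2-AS1 had 0.0723 FPKM under DAPT and 0.1003 under ethanol. Just outside it, GRIK1-AS1 had 0.0817 FPKM under DAPT and 0.0997 under ethanol.

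H1 cells, a long-established line of human embryonic stem cells, were specified toward ectoderm for 10 days with 0.5 nM BMP-4 for 3 days and with 10% fetal calf serum from day 4. DAPT-treated cells received 5 μM DAPT throughout, which blocks γ-secretase, the protease that cuts Notch receptors free from the membrane. The other cells received only ethanol, the vehicle of DAPT, and BMP-4 and serum were common to both treatments. Each treatment gave 3 libraries of poly-A RNA, 6 in all, and no source names a separate culture for each. The comparison asks which of these RNA genes differ in level when γ-secretase is inhibited during specification.

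The deposited table holds 1 FPKM value per treatment, computed by the authors over its libraries. The values below therefore have no SD, no n and no test, and the depth behind them is unknown. The log2 fold of a gene is log2 of (DAPT FPKM + 0.1) over (ethanol FPKM + 0.1), which understates the difference of low genes. A gene is called higher or lower with DAPT where this passes 2-fold, as a description of size. Both sheets of the workbook hold the same values for the 1417 genes they share but name the treatments oppositely. Directions here follow the sheet that lists changed genes, whose naming is also the one the study's text uses, and under the other naming every direction below would turn. Surface ectoderm markers (TFAP2A, TP63 and others) were past 2-fold higher with DAPT for 4 of 8 genes and past 2-fold lower for 0. Their summed level was 1864 FPKM under DAPT and 1590 under ethanol. Most of this sum was KRT8 (961.0 and 876.0 FPKM) and KRT18 (845.6 and 687.2 FPKM), both under 2-fold. TFAP2A had 21.8 and 7.10 FPKM, and TP63 had 3.88 and 0.546 FPKM. Pluripotency markers were lower for 4 of 5 genes (summed 140.4 and 482.6 FPKM), endoderm markers for 5 of 5 (30.5 and 449.2 FPKM) and mesoderm markers for 3 of 5 (54.92 and 75.99 FPKM). Of the neural markers, 1 of 4 genes at 0.1 FPKM or more was higher (summed over 5 genes, 132.8 and 134.6 FPKM). Sums follow the most abundant gene of a list. For endoderm this was APOA1 (24.7 and 402.6 FPKM), for mesoderm HAND1 (49.98 and 62.12 FPKM) and for the neural list TUBB3 (129.9 and 133.2 FPKM). None of these marker genes was listed at 0.

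Long noncoding RNAs are transcribed by RNA polymerase II, are often spliced and carry a poly-A tail, and most act, where a function is known, in the nucleus or as binding platforms for proteins and microRNAs. An antisense RNA is read from the strand opposite to a neighbouring or overlapping gene, its sense partner, and many pairs start from a common bidirectional promoter. Many long noncoding RNAs are restricted to a few cell types, and several are known from embryonic stem cells, where their loss accompanies differentiation.

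The symbols do not settle whether a gene codes for protein. RefSeq holds 331 of the 335 symbols, 66 of them under a newer name. It lists 312 as long noncoding RNA, 4 as antisense RNA, 3 as transcribed pseudogenes and 12 as protein-coding, the last group including LINC00493 (now SMIM26), LINC00617 (TUNAR), LINC00116 (MTLN) and HOXB-AS5 (PRAC2). For HNRNPU-AS1 and LINC00341 the match is to a coding gene that carries the symbol as a synonym. The intergenic label is also loose, since 10 of the 91 intergenic members had a locus in the table that overlapped their nearest gene.

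The members were expressed at low levels. Their median was 0.496 FPKM under DAPT and 0.491 under ethanol, against 4.95 and 4.85 FPKM over all 17301 rows of the table at 0.1 FPKM or more. Of the 335, 127 (37.9%) reached 1 FPKM in 1 treatment and 16 reached 10 FPKM, where 77.9% of all rows reached 1 FPKM. Antisense and intergenic members had like medians, 0.494 and 0.506 FPKM with DAPT and 0.495 and 0.463 FPKM with ethanol.

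Most members differed little between treatments. At least 2-fold higher with DAPT were 24 members (7.16%), against 5.37% of all rows at 0.1 FPKM or more. At least 2-fold lower were 27 members (8.06%), against 6.36% of all rows. The other 284 lay under 2-fold. Within 1.5-fold lay 227 of the 335, against 12909 of the 17301 rows at 0.1 FPKM or more, which is a larger share. This order depended on level. Between 0.1 and 1 FPKM, 140 of 208 members lay within 1.5-fold against 2371 of 3821 rows, a larger share for members. At 1 FPKM or more, 87 of 127 members did, against 10538 of 13480 rows, a larger share for all rows. Over all 335 members the median log2 fold was 0.04, with quartiles of -0.44 and 0.40. All rows at 0.1 FPKM or more gave -0.01, with quartiles of -0.32 and 0.29. Members past 2-fold were 17 higher (6.97%) and 19 lower (7.79%) among the antisense genes, and 7 higher (7.69%) and 8 lower (8.79%) among the intergenic genes.

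**Figure D1:**
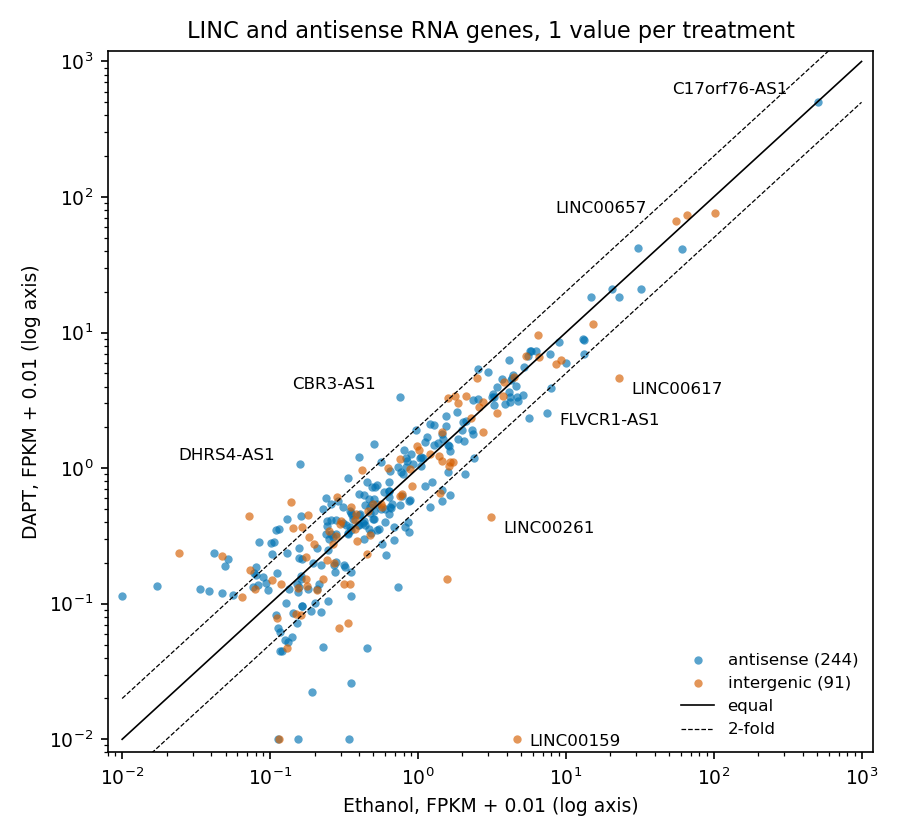
Level of each of the 335 members with DAPT (vertical axis) and with ethanol (horizontal axis), as FPKM plus 0.01 on log axes, 1 point per gene, colored by kind. The solid line marks equal levels and the dashed lines 2-fold differences of the plotted values; most points lie between the dashed lines, LINC00159 is at 0 with DAPT, and the spread around the line widens below 1 FPKM.

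The shares differed by level. Between 0.1 and 1 FPKM, 18 of 208 members (8.65%) were higher and 15 (7.21%) were lower, where all rows in that range gave 6.96% and 9.58%. At 1 FPKM or more, 6 of 127 members (4.72%) were higher and 12 (9.45%) were lower, where all rows gave 4.92% and 5.45%. In the lower range the lower calls of members lay under the share of all rows, and at 1 FPKM or more they lay above it. These shares rest on few genes and were not tested. Of the 51 members past 2-fold, 21 had less than 0.1 FPKM in 1 treatment, so that they met the level rule through the other treatment alone. Over all rows at 0.1 FPKM or more, 929 were higher and 1101 lower, and 447 of these had less than 0.1 FPKM in 1 treatment. The member calls thus rested on such values more often than calls over all rows did, without matching for level. Between 0.1 and 1 FPKM they were 20 among the 18 higher and 15 lower members. In that range they were 327 among 266 higher and 366 lower rows. At 1 FPKM or more it was 1 among 6 higher and 12 lower members. There all rows gave 120 among 663 higher and 735 lower, a larger share than that of members. Members listed at 0 in 1 treatment numbered 6, with LINC00159 and HOXB-AS5 described below. The level rule and the 0.1 FPKM added make any such member pass 2-fold, so all 6 are among the 51.

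**Figure D2:**
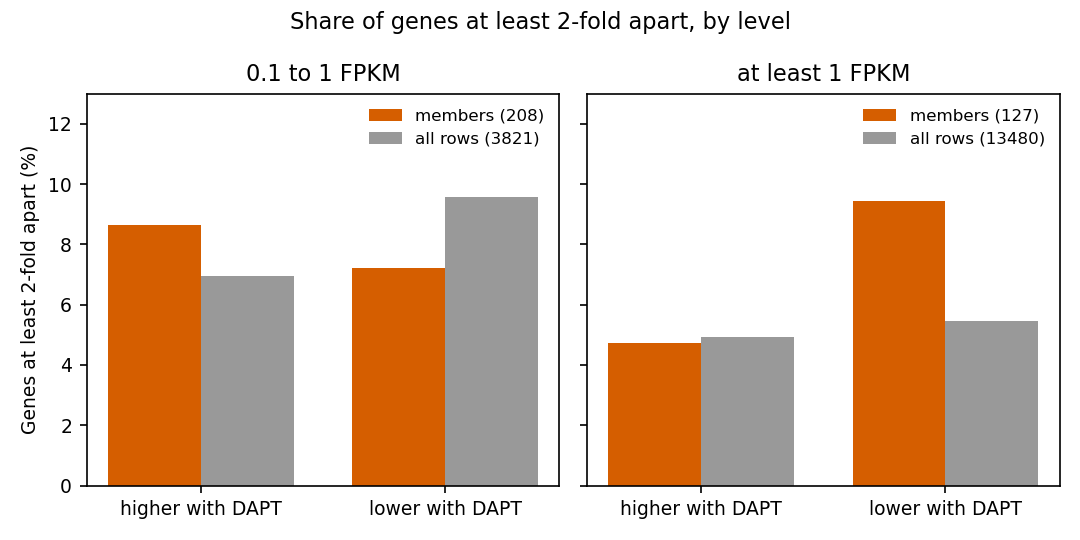
Percentage of genes at least 2-fold higher or lower with DAPT, for members (orange) and all rows of the table (grey), in 2 ranges of the level in the treatment where it is greater, with numbers of genes in the legends. Among genes at 1 FPKM or more, 9.45% of members and 5.45% of all rows were lower with DAPT, while the shares higher were 4.72% and 4.92%.

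Counts of this kind followed the value added before the logarithm. With 0.01 FPKM added, 40 members were higher and 45 lower, and with 1 FPKM added, 1 was higher and 5 were lower. Rows that have the locus or symbol of another row were a further limit, because a locus in the table is often the span of several overlapping genes. Of the members, 212 were such rows, and they made up 32 of the 36 antisense members past 2-fold and none of the 15 intergenic ones. Among all members they made up 199 of 244 antisense and 13 of 91 intergenic genes, so the antisense members past 2-fold were much like the rest in this. The libraries were stranded, but whether the counting used strand is not given in the sources used here. Reads of an antisense RNA and of an overlapping sense partner therefore may not be separable.

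Of the 37 intergenic members at 1 FPKM or more, 5 (13.5%) were lower with DAPT, against 5.45% of all rows at that level. These shares rest on few genes and were not tested. The 5 were LINC00159, LINC00479, LINC00261, LINC00617 and LINC00698. LINC00617, now TUNAR, is a conserved RNA that was described in pluripotent cells and neural differentiation and that also encodes a small protein. It had 4.64 FPKM under DAPT and 22.8 under ethanol, a log2 fold of -2.27. It was the most abundant of the members past 2-fold, and the only one of the 12 members with the highest mean level to differ by that much. Its nearest other gene in the table, C14orf132, lay 113753 bases away and had 6.19 and 6.36 FPKM, so the pair did not differ alike. The pluripotency factors POU5F1 (47.3 FPKM with DAPT, 240.1 with ethanol) and NANOG (2.06 and 10.6 FPKM) were lower alongside it, and their part in this result was not tested.

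LINC00261 is a long RNA of definitive endoderm, reported in human stem cells to aid expression of its neighbor FOXA2, a forkhead factor specifying endoderm. It had 0.428 FPKM under DAPT and 3.13 under ethanol, a log2 fold of -2.61. FOXA2 had 0.370 and 4.79 FPKM, a log2 fold of -3.38. In the table LINC00261 occupies chr20:22541192-22559280 of hg19, and FOXA2 lies 2362 bases from it. RNA and neighbor were thus both low with DAPT. With 0.1 FPKM added, LINC00261 was the only intergenic member past 2-fold whose nearest gene was also past 2-fold on the same side, of 15. Among other rows past 2-fold, 290 of 1979 had such a nearest gene, so a count of 1 in 15 is no more than that share. The other endoderm markers were lower too, for example SOX17 (0.475 and 4.41 FPKM) and the plasma protein gene APOA1 (24.7 and 402.6 FPKM). Their part in the LINC00261 result was not tested, and in bulk RNA fewer cells of a type and less RNA per cell cannot be told apart.

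**Figure D3:**
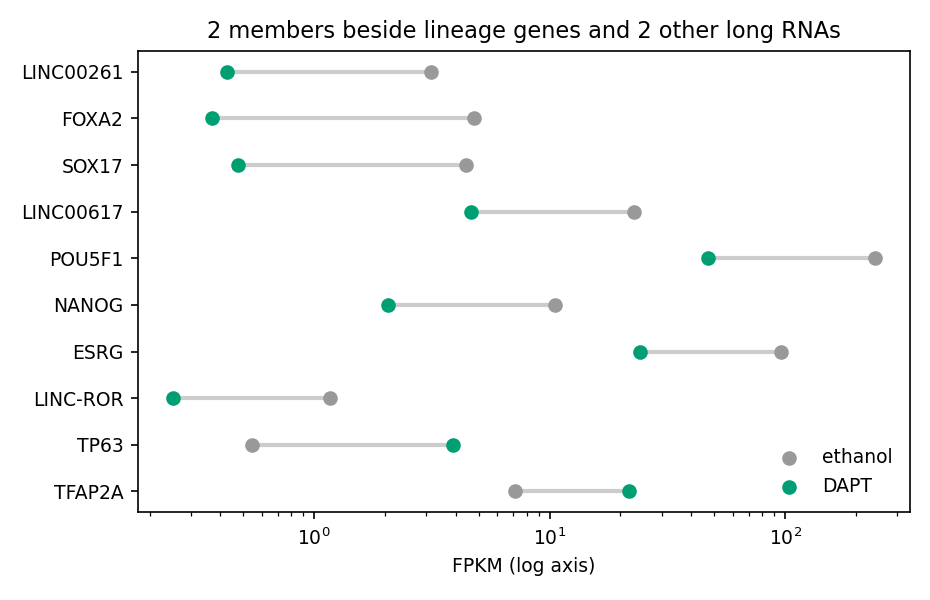
FPKM (log axis) with DAPT (green) and ethanol (grey) for LINC00261 and LINC00617 beside the endoderm genes FOXA2 and SOX17, the pluripotency factors POU5F1 and NANOG, the stem cell RNAs ESRG and LINC-ROR, and the surface ectoderm factors TP63 and TFAP2A, 1 value per gene and treatment. The grey point lies to the right for all but TP63 and TFAP2A, which were higher with DAPT.

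The remaining intergenic RNAs of this group had neighbors under 2-fold with 0.1 FPKM added. LINC00159, at chr21:33452794-33458608, was listed at 0 with DAPT and had 4.69 FPKM with ethanol, so no fold is given. The kinase gene HUNK, the nearest to it, had 4.21 and 3.13 FPKM. LINC00479, at chr21:43131680-43135935, had 0.143 FPKM under DAPT and 1.56 under ethanol, a log2 fold of -2.78. RIPK4, a kinase required in epidermal differentiation, lay 23594 bases from it and had 1.83 and 1.45 FPKM. LINC00698 had 0.642 and 1.41 FPKM, a log2 fold of -1.02, and lay 153177 bases from SYNPR, a synaptic vesicle protein gene. SYNPR had 0.162 and 0.410 FPKM, a log2 fold of -0.96. Both were thus lower with DAPT, and SYNPR lay under 2-fold only because of the 0.1 FPKM added. Of the 37 intergenic members at 1 FPKM or more, 1 (2.7%) was higher with DAPT, against 4.92% of all rows at that level. It was LINC00673, with 3.29 and 1.59 FPKM and a log2 fold of 1.00, at the limit of the rule.

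**Figure D4:**
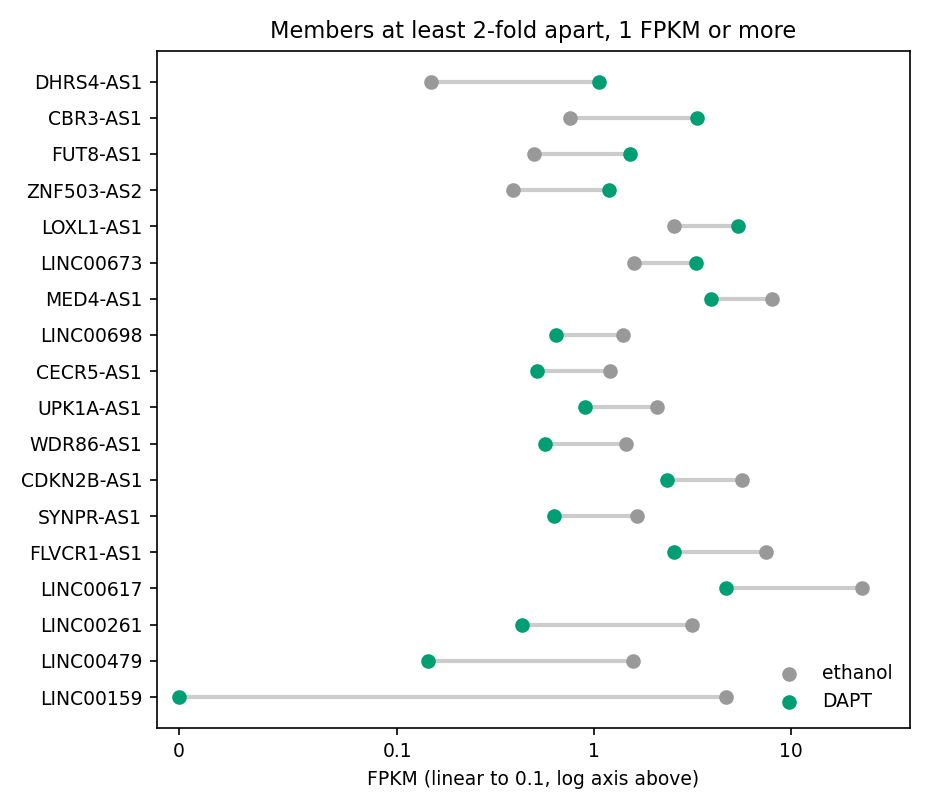
FPKM with DAPT (green) and ethanol (grey) for the 18 members that were at least 2-fold apart with 1 FPKM or more in 1 treatment, ordered by log2 fold, on an axis that is linear to 0.1 and logarithmic above. The 12 lower members run from LINC00159, listed at 0 with DAPT, to MED4-AS1, and the 6 higher members from LINC00673 to DHRS4-AS1.

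Of 90 antisense members at 1 FPKM or more, 7 (7.78%) were past 2-fold lower with DAPT and 5 (5.56%) higher. All rows at that level gave 5.45% and 4.92%, and the difference was not tested. FLVCR1-AS1 starts 136 bases from FLVCR1, a gene for a heme and choline transporter, and the pair runs head to head. The RNA had 2.55 FPKM under DAPT and 7.42 under ethanol, a log2 fold of -1.50. FLVCR1 had 1.90 and 0.578 FPKM, a log2 fold of 1.56. The members of this pair stood on opposite sides, although no other row has the locus of FLVCR1-AS1 and the gene spans do not overlap. CDKN2B-AS1, also called ANRIL, lies in the locus of the cell cycle inhibitors CDKN2A and CDKN2B and is linked with Polycomb silencing there. It had 2.33 FPKM under DAPT and 5.603 under ethanol, a log2 fold of -1.23. CDKN2B had 12.8 and 2.08 FPKM, a log2 fold of 2.56, again opposite to its antisense RNA. These were the only 2 pairs with both genes past 2-fold on opposite sides.

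Others of the lower antisense members had a partner on the same side or close to 0. UPK1A-AS1 had 0.895 and 2.07 FPKM (log2 fold -1.13), and UPK1A, a uroplakin of urothelial plaques, had 1.84 and 4.12 FPKM (log2 fold -1.12). SYNPR-AS1 had 0.626 and 1.65 FPKM (log2 fold -1.27), and SYNPR a log2 fold of -0.96. Both pairs stood together in side and nearly in size. WDR86-AS1 had 0.564 and 1.44 FPKM (log2 fold -1.22) beside a log2 fold of -0.47 for WDR86. CECR5-AS1, now HDHD5-AS1, had 0.511 and 1.20 FPKM (log2 fold -1.09) beside -0.59 for CECR5, which was far more abundant at 19.04 and 28.8 FPKM. For MED4-AS1 (3.90 and 7.99 FPKM, log2 fold -1.02) the partner MED4, a Mediator subunit, was at 21.9 and 20.6 FPKM, with a log2 fold of 0.09.

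The higher antisense members were DHRS4-AS1, CBR3-AS1, FUT8-AS1, ZNF503-AS2 and LOXL1-AS1. DHRS4-AS1 had 1.06 FPKM under DAPT and 0.148 under ethanol, a log2 fold of 2.22, the greatest of the higher members on this scale. Its partner DHRS4, a short-chain dehydrogenase/reductase, had 5.49 and 6.16 FPKM, a log2 fold of -0.16. CBR3-AS1 had 3.32 and 0.751 FPKM, a log2 fold of 2.01, where CBR3, a carbonyl reductase, had 1.32 and 1.71 FPKM, a log2 fold of -0.35. Both RNAs thus differed without their partners. DHRS4 has near-identical copies in its cluster, between which reads may have been divided. LOXL1-AS1 had 5.35 and 2.55 FPKM, a log2 fold of 1.04, and LOXL1, a lysyl oxidase that crosslinks elastin, had 26.0 and 30.0 FPKM. FUT8-AS1 had 1.51 and 0.496 FPKM, a log2 fold of 1.43, and the table marks its comparison as failed. FUT8, the core fucosyltransferase, had 25.3 and 13.6 FPKM, a log2 fold of 0.89. ZNF503-AS2 had 1.19 and 0.387 FPKM, a log2 fold of 1.41. ZNF503, a zinc finger repressor whose start lies 245 bases away, had 3.11 and 1.09 FPKM, a log2 fold of 1.43, so this head-to-head pair stood together.

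The promoter sequences of 4 of these genes are shown because they set the endoderm RNA and the stem cell RNA beside a head-to-head pair on opposite sides and a head-to-head pair on the same side. They were chosen after the values were seen. Each is the RefSeq window of 300 bases (GRCh38.p14) from 250 bases before the gene's start to 50 after it, 5′ to 3′ on the gene's strand. Capitals mark CG dinucleotides (CpG). The windows are chr20:22578593-22578892, minus strand (LINC00261), chr14:95876198-95876497, plus strand (LINC00617), chr1:212858089-212858388, minus strand (FLVCR1-AS1) and chr10:75401278-75401577, plus strand (ZNF503-AS2).
LINC00261: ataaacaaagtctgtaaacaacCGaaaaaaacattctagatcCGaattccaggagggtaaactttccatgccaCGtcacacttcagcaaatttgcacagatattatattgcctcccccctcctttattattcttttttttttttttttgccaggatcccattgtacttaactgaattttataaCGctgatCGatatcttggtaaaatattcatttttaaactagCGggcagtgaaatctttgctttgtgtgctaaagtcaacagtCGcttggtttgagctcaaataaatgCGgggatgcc
LINC00617: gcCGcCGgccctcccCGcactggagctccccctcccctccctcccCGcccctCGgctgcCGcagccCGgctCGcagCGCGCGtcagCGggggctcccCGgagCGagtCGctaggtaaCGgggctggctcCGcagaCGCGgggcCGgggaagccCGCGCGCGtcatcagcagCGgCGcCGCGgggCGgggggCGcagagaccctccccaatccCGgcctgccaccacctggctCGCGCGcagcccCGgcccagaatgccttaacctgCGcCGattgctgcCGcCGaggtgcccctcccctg
FLVCR1-AS1: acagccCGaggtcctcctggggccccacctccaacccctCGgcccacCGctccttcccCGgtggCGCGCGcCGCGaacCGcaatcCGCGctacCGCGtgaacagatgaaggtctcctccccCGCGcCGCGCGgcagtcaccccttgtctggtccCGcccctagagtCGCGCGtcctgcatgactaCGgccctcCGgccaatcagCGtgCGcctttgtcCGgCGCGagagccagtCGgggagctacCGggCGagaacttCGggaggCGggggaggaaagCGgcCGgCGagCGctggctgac
ZNF503-AS2: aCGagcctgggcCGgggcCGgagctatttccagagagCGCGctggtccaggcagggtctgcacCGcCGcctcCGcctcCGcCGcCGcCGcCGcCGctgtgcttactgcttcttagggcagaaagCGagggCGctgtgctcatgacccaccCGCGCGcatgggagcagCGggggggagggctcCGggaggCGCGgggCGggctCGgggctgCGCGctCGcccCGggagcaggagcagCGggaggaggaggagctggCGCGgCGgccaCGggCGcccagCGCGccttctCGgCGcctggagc

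The LINC00261 window is AT-rich, with 37.0% GC and 8 CpG, while the other windows are CpG-rich, with 39 CpG each and 78.3% GC (LINC00617), 72% (FLVCR1-AS1) and 76.7% (ZNF503-AS2). RefSeq windows were found for 249 members, with a median of 62.0% GC and 19 CpG, against 58.3% and 14 over 27305 promoters. Those 27305 were not filtered on level, unlike the members, so the comparison is not matched for level. The 101 with 1 FPKM or more had a median of 23 CpG and the 148 below it 15. By position, 53 head-to-head antisense members had a median of 28 CpG, 112 overlapping ones 16.5 and 70 intergenic members 8.5. The low CpG content of LINC00261 is thus near that of its kind, and that of LINC00617 is far from it.

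Short motifs were searched on both strands, and a match is only a match of letters. The shares over all windows again include genes of any level. TGGGAA, the core bound by RBPJ, the DNA-binding partner of Notch, was in 22.9% of member windows and 24.3% of all windows, and in none of the 4 shown. GTAAACA, a forkhead motif, was in 4.42% of member windows and 3.41% of all. It was in the LINC00261 window once, 237 bases before the start, and in none of the other 3 windows. This motif was searched after the LINC00261 window had been read. TATAAA was in 21 of 249 member windows, LINC00261 among them, and in 3264 of all 27305, and ATGCAAAT, the octamer bound by POU factors, in 0.803% and 1.80%.

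Over all antisense members, 237 had a row for the sense partner, and for 228 the partner had 0.1 FPKM or more. The partner was the more abundant gene in 196 of the 228 pairs, with a median ratio of 10.2. Both genes lay on the same side of 0 in 132 pairs (57.9%), and across the pairs Pearson's r of the log2 folds was 0.27 and Spearman's rho 0.26. As a description, any other row at 0.1 FPKM or more lay on the side of its nearest gene in 55.6% of 16965 cases, with an r of 0.08 and a rho of 0.18. For the 13671 such rows that do not share the locus of their nearest gene, r was 0.15 and rho 0.19. Among 68 head-to-head pairs, whose starts lie within 1000 bases on opposite strands, 42 (61.8%) stood on the same side, with an r of 0.36. Among 146 pairs with overlapping spans 79 (54.1%) did, with an r of 0.24. For the 78 pairs in which both genes had 1 FPKM or more the count was 41 (52.6%), r was 0.03 and rho 0.11, below the values over all pairs. The points of each correlation come from the same libraries, and 174 of the 228 pairs have 1 locus in the table for both genes.

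**Figure D5:**
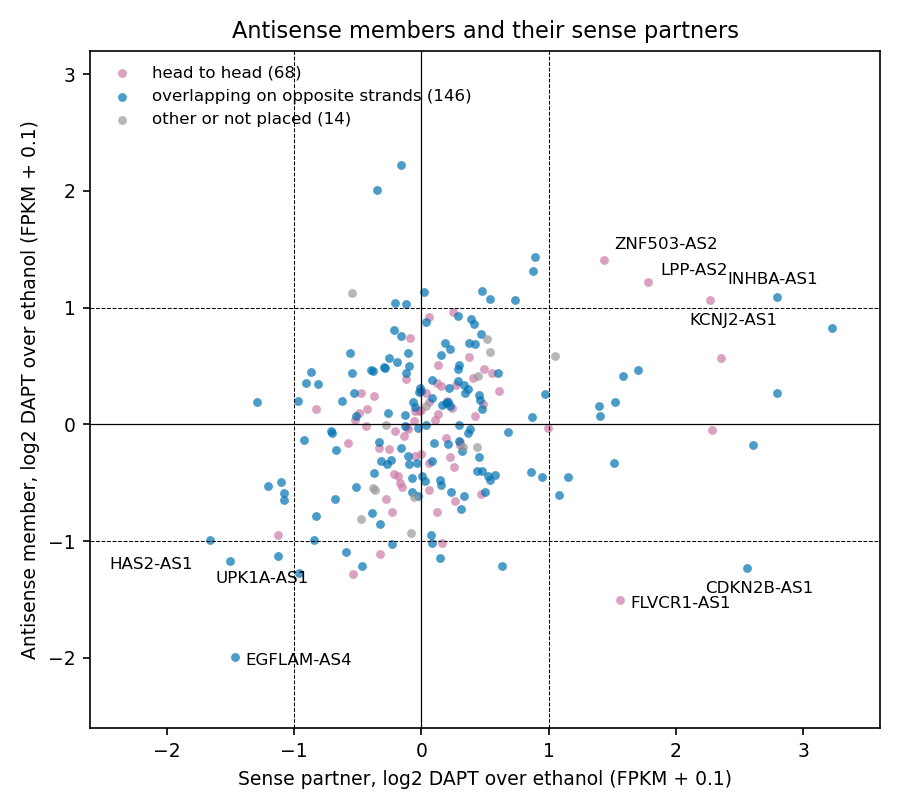
Log2 fold of DAPT over ethanol (FPKM + 0.1) for the 228 antisense members (vertical axis) and their sense partners (horizontal axis), 1 point per pair, colored by how the genes lie to each other. Dashed lines mark 2-fold; 7 pairs lie past both lines on the same side, CDKN2B-AS1 and FLVCR1-AS1 lie at the lower right, and many points lie along the axes.

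Of the 30 antisense members past 2-fold in these pairs, 7 had a partner past 2-fold on the same side, 2 on the opposite side and 21 had none past 2-fold. In the 78 pairs with both genes at 1 FPKM or more, 11 members were past 2-fold. Of these 11, 2 had a partner past 2-fold on the same side and 2 on the opposite side. For the 1979 other rows past 2-fold, the nearest gene was past 2-fold on the same side in 290 and on the opposite side in 94. Besides UPK1A and ZNF503, the partners on the same side were EGFLAM, HAS2, INHBA, KCNJ2 and LPP. INHBA, the activin A subunit, had 23.1 FPKM under DAPT and 3.25 under ethanol, and INHBA-AS1, named like HAS2-AS1 and KCNJ2-AS1 after its values were seen, had 0.203 and 0.0418 FPKM. KCNJ2, a potassium channel, had 3.31 and 0.608 FPKM, and KCNJ2-AS1 had 0.589 and 0.229 FPKM. LPP, a focal adhesion protein, had 3.76 and 1.03 FPKM, and LPP-AS2 had 0.413 and 0.120 FPKM. These were higher together, with the RNA under 1 FPKM. EGFLAM, a matrix protein, had 3.11 and 8.75 FPKM, and EGFLAM-AS4 had 0.0372 and 0.446 FPKM. HAS2, a hyaluronan synthase, had 13.01 and 37.07 FPKM, and HAS2-AS1 had 0.329 and 0.866 FPKM. In both of the latter the gene and its RNA were lower with DAPT.

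In a further 21 pairs the partner was past 2-fold (14 higher, 7 lower) and the RNA was not, with the RNA on the partner's side in 15. The following examples were chosen after their values were seen. ZEB1, a repressor of epithelial genes, had 0.990 FPKM under DAPT and 0.0791 under ethanol, while ZEB1-AS1 had 1.64 and 1.86 FPKM. SERTAD4 had 9.93 and 3.69 FPKM, while SERTAD4-AS1 had 3.34 and 3.18 FPKM. ACVR2B, a type II activin receptor, had 1.35 and 0.199 FPKM, while ACVR2B-AS1, head to head with it, had 0.472 and 0.494 FPKM. In each the sense gene differed and the antisense RNA was nearly level. PRKCQ-AS1 was near the limit at 1.18 and 2.38 FPKM (log2 fold -0.95), beside a log2 fold of -1.12 for the protein kinase gene PRKCQ, whose start lies 118 bases away.

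For the intergenic members the nearest other gene lay a median of 16726 bases away. Of the 91, 47 (51.6%) stood on its side of 0, with an r of 0.20 and a rho of 0.14 across the pairs, whose values come from the same libraries.

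Of the 12 most abundant members, 11 lay under 2-fold, with LINC00617 as the exception. C17orf76-AS1, now SNHG29, a host of small nucleolar RNAs, had 503.4 FPKM under DAPT and 510.5 under ethanol and made up 38.8% and 37.0% of the FPKM summed over members. LINC00493, which encodes the small membrane protein SMIM26, had 76.3 and 102.9 FPKM. LINC00152, now CYTOR, had 74.2 and 66.5 FPKM, a value that reads of its near-identical copy MIR4435-2HG could affect. None of the 3 reached a log2 fold of 0.5 in size. LINC00657, now NORAD, a cytoplasmic RNA that binds Pumilio proteins and guards genome stability, had 66.2 and 55.7 FPKM. OIP5-AS1, the Cyrano RNA that pairs with miR-7, had 18.3 and 22.8 FPKM. FGD5-AS1 had 42.2 and 30.8 FPKM, a log2 fold of 0.46, with FGD5 at 1.31 and 1.74 FPKM. In that pair the antisense RNA was the more abundant gene. FBXO22-AS1 had 41.6 and 61.4 FPKM beside 16.7 and 21.6 FPKM for FBXO22, and PCNA-AS1 had 20.9 and 32.2 FPKM beside 125.1 and 130.2 FPKM for the replication clamp gene PCNA. THAP9-AS1 (20.8 and 20.5 FPKM), HOXB-AS3 of the HOXB cluster (18.2 and 14.9 FPKM) and LINC00665 (11.6 and 15.3 FPKM) complete the group.

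NORAD stood out by sequence. The Pumilio motif TGTANATA, with N for any base, occurs 15 times in its longest transcript of 5401 bases in GENCODE. Of the 36 other named members with a transcript there, 27 had no match and none had more than 2. The motif was searched on the transcript's strand only, and its share over all transcripts was not computed.

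Below 1 FPKM the largest differences rest on small values. The lower ones were HOXB-AS5 (now PRAC2), listed at 0 with DAPT and at 0.333 FPKM with ethanol, EGFLAM-AS4, LHFPL3-AS2 (0.0161 and 0.345 FPKM), TLR8-AS1 (0.122 and 0.728 FPKM), LINC00348 (0.0620 and 0.328 FPKM) and TPRG1-AS2 (0.0123 and 0.182 FPKM). PRAC, the gene next to HOXB-AS5, was also lower, with 0.300 and 2.41 FPKM, while TLR8 was listed at 0 in both treatments. The higher ones were LINC00475 (0.433 and 0.0625 FPKM), LINC00626 (0.229 and 0.0143 FPKM), LINC00327 (0.552 and 0.128 FPKM), ZFHX4-AS1 (0.227 and 0.0316 FPKM), LPP-AS2 and LINC00619 (0.216 and 0.0372 FPKM). Of the 33 members past 2-fold in this range, 17 were marked by the table as not tested and 1 as failed. The share not tested was close to that of the whole range, with 105 of 208 members and 1875 of 3821 rows.

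Well-known long noncoding RNA genes outside the symbol rule were set beside the members. Of 52 symbols listed, 2 proved to be members, 44 others had a row and 38 had 0.1 FPKM or more, of which 3 were higher and 3 lower, with a median log2 fold of -0.21. Lower were ESRG, an RNA of human embryonic stem cells (24.3 FPKM with DAPT, 95.9 FPKM with ethanol), LINC-ROR, a pluripotency RNA (0.252 and 1.17 FPKM), and HCP5 (0.678 and 1.68 FPKM). The first 2 stood on the side of LINC00617 and of the pluripotency markers. MIR22HG, the host of miR-22, was higher (19.2 and 7.74 FPKM), as were EMX2OS and HOTAIR, both under 1 FPKM and named after their values were seen. The most abundant were H19, an imprinted fetal RNA (1587 and 1274 FPKM), and the hosts of small nucleolar RNAs ZFAS1 (210.6 and 234.5 FPKM) and GAS5 (195.9 and 240.2 FPKM), all under 2-fold, as were SNHG5, SNHG8 and SNHG6.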

How the data were processed

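Poly-A RNA of H1 cells treated with DAPT or ethanol was sequenced from 3 libraries per treatment. Per the study's methods, the authors aligned reads by TopHat 2.0.6 to the build hg19 and quantified genes by Cufflinks. The deposited FPKM values are the authors' own, 1 per gene and treatment, so samples were grouped by treatment only, depth is unknown and no replicate error can be given. Columns with the authors' fold, test statistic, p, q and call hold their comparison and were not used. No column went unmatched (0).

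Folds were computed with 0.1 FPKM added to both values, in pandas 2.3.3 and numpy 2.4.6 under Python 3.11.15, and counting was tested on simulated data. The authors' start positions count from 0 and were raised by 1. Sense partners were matched by symbol, and strands and starts came from GENCODE 44 lifted to GRCh37. Current names, types and promoters came from RefSeq (GRCh38.p14).

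The members and gene lists were chosen with earlier results of these data known. Genes named are members past 2-fold with 1 FPKM or more, the 12 highest by mean FPKM, the 6 largest differences each way at 0.1 to 1 FPKM, and their partners or nearest genes. Outside this rule, 7 antisense members were named with their partners after their values were seen. From the other long noncoding RNAs, genes past 2-fold with 1 FPKM or more and the 6 highest were named, and EMX2OS and HOTAIR besides. Alternatives were the pseudocount (none, 0.01 and 1 FPKM), the level minimum, centring on the median and leaving out rows that share a locus or symbol.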

Additional observations from a re-analysis of the deposited data

How the results depend on the processing

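All alternatives below were fixed with earlier results known. Counts past 2-fold are given as higher and lower with DAPT, for all, antisense and intergenic members in turn. With no pseudocount they were 40 and 43, 29 and 33, and 11 and 10. With 0.01 FPKM added they were 40 and 45, 29 and 34, and 11 and 11. With 1 FPKM added they were 1 and 5, 1 and 1, and 0 and 4. With 0.1 FPKM required in both treatments they were 14 and 16, 10 and 12, and 4 and 4. With 0.5 FPKM required in 1 treatment they were 10 and 16, 7 and 11, and 3 and 5, and with 1 FPKM required 6 and 12, 5 and 7, and 1 and 5. Without rows that share a locus or symbol they were 9 and 10, 2 and 2, and 7 and 8. Smaller sets of genes give fewer calls by construction. The median log2 fold of the members moved by 0.1 or more in 1 alternative, to -0.0762 over the 123 members that share no locus or symbol, and the cause was not tested. Antisense members on their partner's side numbered 200 of 409 with no minimum level, where rows at 0 in both treatments count on neither side. The count was 69 of 125 at 0.5 FPKM, 41 of 78 at 1 FPKM and 24 of 44 without shared rows. Intergenic members on the side of their nearest gene numbered 94 of 265 with no minimum level, where rows at 0 in both treatments count on neither side, 25 of 49 at 0.5 FPKM and 16 of 37 at 1 FPKM. Centring on the median of all rows with 1 FPKM or more was a shift of only 0.000645 and changed no count. Of 363 log2 folds of the 48 members described by name under these alternatives, 47 moved by 1.5-fold or more, in 22 members. None changed sign past 2-fold, but none of these alternatives could bring that about. A value added to both levels and a filter on rows leave the sign as it is, and the centring shift is too small.

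No paired analysis was possible because the table gives 1 value per treatment, and leaving out each library was not run for the same reason. Whether the differences exceed the spread between libraries was not tested here, and depth cannot be weighed. Directions rest on the naming in the sheet of changed genes.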
